A study of Rattus norvegicus with 3 samples.

Results

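miR-126a is the rat form of miR-126, an endothelial microRNA, and both of its mature arms were followed here, miR-126a-3p and miR-126a-5p. The rule took every rat-named row whose name before any suffix was one of these 2 arms, which gave 2 of 1480 rows in each library and 2 of 509 rat-named miRNAs. According to the labels, the small RNA came from extracellular vesicles (EVs, small membrane-bound particles shed into the medium) of wild-type primary astrocytes of neonatal rats. The cells had been given IL-4 and C1q, or IL-1α, TNF-α and C1q, from day 6 for 24 h, or had been left untreated; C1q, a complement protein, was common to both treatments. There was 1 library for each condition, in 1 labelled batch, with 7779718 miRNA counts for IL-4/C1q, 12327301 for IL-1α/TNF-α/C1q and 6318839 for the untreated cells. The labels do not say how many animals or cultures went into a library, and since their protocol text mentions RNA of harvested astrocytes as well as RNA of EVs, the RNA source is not certain. With 1 library per condition there is no replicate check: ratios compare libraries, and their 95% intervals cover counting error only.

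Both arms are cut from the opposite sides of 1 hairpin, which in mouse and human lies in an intron of the endothelial gene Egfl7. The 3p arm is best known for sustaining VEGF signalling in endothelial cells, where it represses the inhibitors Spred1 and Pik3r2, and for lowering the leukocyte adhesion molecule VCAM-1. The 5p arm is known from mouse endothelium, where it represses the Notch inhibitor Dlk1 and favours endothelial proliferation. miR-126 is also carried by platelets and some blood progenitors, and is not a marker of astrocytes. Its targets are mRNAs, which small RNA libraries do not measure.

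The 2 mature sequences are shown first because the arms share a transcript but not a seed, the stretch that pairs with target mRNAs. Capitals mark the seed, bases 2 to 8 from the 5′ end, and the antisense miR-126b is added because its gene overlaps theirs.
rno-miR-126a-3p: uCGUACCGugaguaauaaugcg
rno-miR-126a-5p: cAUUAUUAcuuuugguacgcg
rno-miR-126b: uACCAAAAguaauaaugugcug

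In RefSeq's GRCr8 build the 3p arm is at chr3:29813219-29813240 and the 5p arm at chr3:29813182-29813202, both on the plus strand and 16 bases apart. Both arms lie within the annotated span of Egfl7, chr3:29802481-29814966, whose listed promoters are also on the plus strand. RefSeq gives the hairpin that carries them the symbol Mir126b, and gives Mir126a to the antisense gene, so the mature names and not the gene symbols were matched. miR-126b, at chr3:29813177-29813198 on the minus strand, overlaps the 5p arm by 17 bases and is its exact complement over those 17. No row of any species carried the name miR-126b, so it could not be analysed here. None of the other mature names among the 693 rat ones in the table shares the seed of the 3p arm, CGUACCG, and none shares that of the 5p arm, AUUAUUA.

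Each arm was held by a single row in each library, as were 470 of the 499 rat names before their suffixes. The 5p row carried no suffix. The 3p row carried the suffix R-1, as did 72 of 548 rat-named rows; the sources used here do not define it, but in a common naming scheme it marks a product 1 base shorter at the 3′ end than the database entry. Read in that way, the counted 3p product was 21 bases long, without the final G of the 22 printed. Both arms had whole-number counts in all 3 libraries, and no row of another species was named miR-126.

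miR-126a-3p differed between the libraries more than miR-126a-5p did. It had 269 counts in the IL-4/C1q library, 255 after IL-1α/TNF-α/C1q and 319 in untreated cells. Scaled to a library total of 1000000 miRNA counts (CPM), these were 34.6 CPM (95% Clopper-Pearson interval 30.6 to 38.97) for IL-4/C1q, 20.7 CPM (18.2 to 23.4) for IL-1α/TNF-α/C1q and 50.5 CPM (45.1 to 56.3) for untreated cells. The 3 intervals do not overlap, with the untreated library highest and the IL-1α/TNF-α/C1q library lowest. miR-126a-5p had 107 counts after IL-4/C1q, 175 after IL-1α/TNF-α/C1q and 114 in the untreated library, or 13.8 CPM (11.3 to 16.6), 14.2 CPM (12.2 to 16.5) and 18.04 CPM (14.9 to 21.7). The 3 intervals of the 5p arm all overlap.

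**Figure D1:**
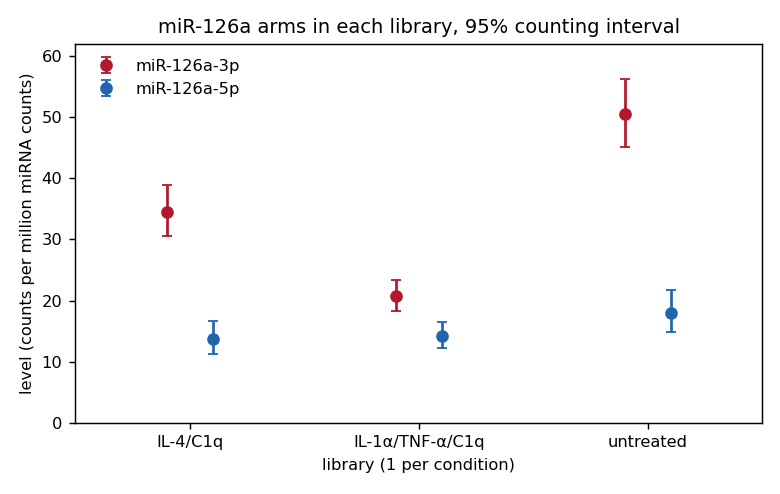
Level of miR-126a-3p and miR-126a-5p in each library, in CPM; points are single libraries and bars are 95% Clopper-Pearson intervals, which cover counting error only. The 3p arm stands at 34.6, 20.7 and 50.5 CPM for IL-4/C1q, IL-1α/TNF-α/C1q and untreated cells, while the intervals of the 5p arm overlap.

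Both arms were scarce beside the miRNAs that filled the libraries. The most abundant miRNA, miR-21-5p, which is abundant in glia, held 38.7%, 36.5% and 35.8% of the counts for IL-4/C1q, IL-1α/TNF-α/C1q and untreated cells. The 3p arm ranked 231 of 447 detected rat-named miRNAs after IL-4/C1q, 256 of 474 after IL-1α/TNF-α/C1q and 214 of 449 in the untreated library. Its neighbours in that order were miR-664-3p and miR-193b-3p after IL-4/C1q, at 274 and 257 counts, and miR-503-3p and miR-412-5p in the untreated library, at 322 and 316 counts. After IL-1α/TNF-α/C1q they were miR-191a-3p at 257 counts and miR-148a-5p, level with it at 255. The 5p arm ranked 288, 280 and 278, beside miR-33-5p and miR-485-5p (108 and 107 counts), miR-6331 and miR-181a-2-3p (178 and 175), and miR-532-3p and miR-1247-5p (116 and 110). All of these neighbours lay within the counting interval of their arm. The labelled cell type was checked with 11 astrocyte or glial miRNAs, all detected, which together made up 554436 CPM after IL-4/C1q, 539981 CPM after IL-1α/TNF-α/C1q and 571489 CPM in the untreated library. Most of that was miR-21-5p, which many cell types express; the other 10 summed to 167514, 174767 and 213568 CPM, and several of them are found outside glia too, so the sums do not identify astrocytes. The 2 miR-126a arms, the only endothelial-defining miRNAs measured, made up 48.3, 34.9 and 68.5 CPM.

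The first comparison set IL-4/C1q against untreated cells. miR-126a-3p was 1.46-fold lower in the IL-4/C1q library (95% exact conditional binomial interval 1.24 to 1.72), a log2 ratio of −0.55. miR-126a-5p was 1.31-fold lower (0.999 to 1.72), with a log2 ratio of −0.39 and an interval that just reaches no difference. Neither met the size rule used here, which asks for a ratio of 2-fold or more whose interval leaves out 1, with 50 or more counts in whichever library is higher. By that rule 23.5% of the 485 miRNAs with enough counts were lower after IL-4/C1q and 12.8% were higher; among the 358 rat-named ones the shares were 14.8% and 15.4%. Of these rat-named miRNAs, 87 had a lower ratio than the 3p arm and 107 a lower ratio than the 5p arm, so both lay in the lower part of a broad range with a median of −0.04. In small RNA from a culture, fewer cells of a type and less of an miRNA per cell cannot be told apart, nor can a lower share in a treated library and an excess in the only untreated one.

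The second comparison set IL-1α/TNF-α/C1q against untreated cells. In the treated library miR-126a-3p was 2.44-fold lower (2.06 to 2.89), a log2 ratio of −1.29, and met the size rule. Of 513 miRNAs with enough counts, 21.1% were lower by the same rule and 13.5% higher; among the 373 rat-named ones 12.3% were lower and 15% higher. The call is thus one that many miRNAs share in this comparison, and 38 rat-named miRNAs had a lower ratio than the 3p arm. miR-126a-5p was 1.27-fold lower (0.995 to 1.62), with a log2 ratio of −0.35, and did not meet the rule. Its interval does not reach 2-fold in either direction.

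The last comparison set IL-4/C1q against IL-1α/TNF-α/C1q, without the untreated library. miR-126a-3p was 1.67-fold higher in the IL-4/C1q library (1.40 to 1.99), a log2 ratio of 0.74, short of 2-fold. Few miRNAs met the rule between these libraries, 1.5% of 467 being higher and 1.07% lower; among the 359 rat-named ones 0.279% were higher and 0.836% lower. Of those rat-named miRNAs, 351 had a lower ratio than the 3p arm. miR-126a-5p was level, with a ratio of 0.969 (0.754 to 1.24), near the middle of the same order with 199 below it. The 3p arm thus stood near the upper end of this comparison without reaching the size rule, whereas the 5p arm did not differ beyond counting error.

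**Figure D2:**
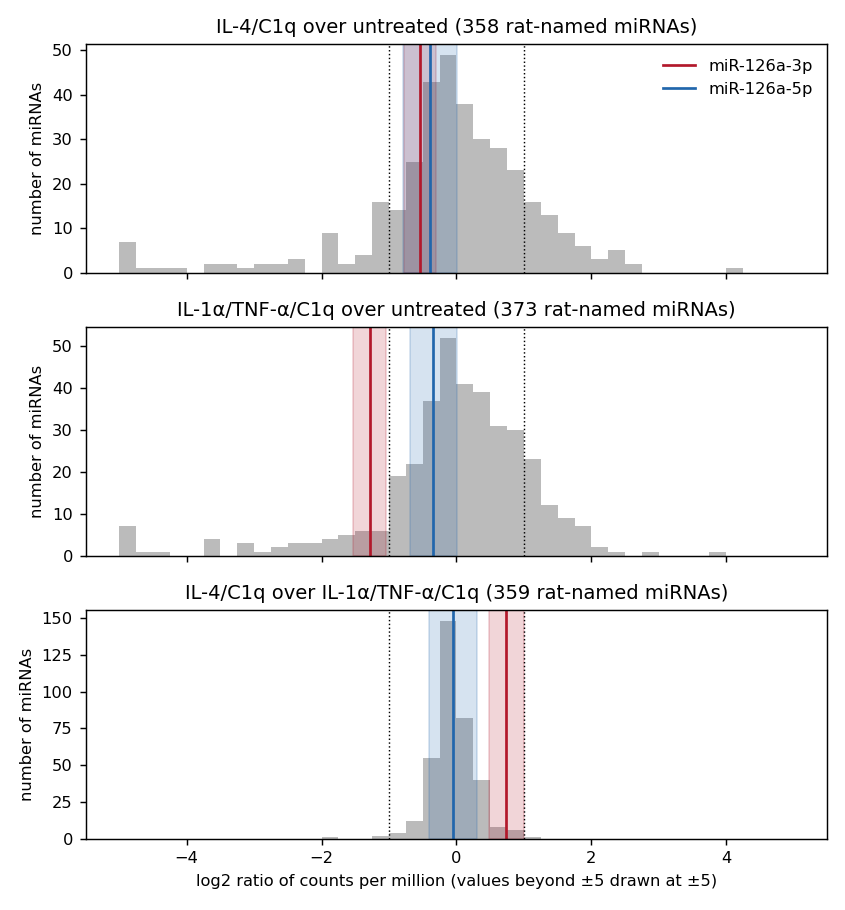
Histograms of log2 ratios of CPM for rat-named miRNAs that reach 50 counts in either library compared, 1 panel for each comparison; solid lines are the miR-126a arms, shaded bands their 95% intervals, and dotted lines mark 2-fold. The 3p arm lies at −0.55, −1.29 and 0.74 from top to bottom, the 5p arm at −0.39, −0.35 and −0.05.

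The balance of the arms was then compared within each library, where scaling between libraries plays no part. The 3p arm made up 71.5% of the miR-126a counts in the IL-4/C1q library (66.7 to 76.1%), 59.3% with IL-1α/TNF-α/C1q (54.5 to 63.98%) and 73.7% in the untreated library (69.3 to 77.8%). Expressed as 3p over 5p, the ratios were 2.51 (2.002 to 3.18), 1.46 (1.20 to 1.78) and 2.80 (2.25 to 3.50). The 3p arm was the more abundant one in every library, and its share was lowest after IL-1α/TNF-α/C1q, where the interval meets neither of the others. The odds of 3p against 5p were 1.92-fold lower with IL-1α/TNF-α/C1q than in untreated cells (exact conditional interval of the odds ratio 1.43 to 2.59). They were 1.73-fold higher in the IL-4/C1q library than with IL-1α/TNF-α/C1q (1.27 to 2.35). Between IL-4/C1q and untreated cells they were 1.11-fold lower (0.807 to 1.54), a difference not detectable at this depth.

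Shifts of this kind were also measured in other miRNAs, over 84 rat-named arm pairs with a mean of at least 50 counts for each arm, a set chosen after the values of miR-126a were seen. Between IL-1α/TNF-α/C1q and untreated cells, 15.5% of the pairs, miR-126a included, differed in arm odds at least as far as miR-126a in either direction. Between IL-4/C1q and untreated cells the share was 71.4%, and between IL-4/C1q and IL-1α/TNF-α/C1q it was 3.57%. The pairs were not matched for depth, and odds from few counts vary more by counting error. For miR-126a the interval in the last comparison ran from log2 0.35 to 1.23. In that last comparison 2 of the 83 other pairs, named after their values were seen, lay as far out: miR-365 with a log2 odds ratio of 0.82, and miR-324 with −0.80. For miR-365 the 3p arm held 95.9% of the counts after IL-4/C1q and 92.9% after IL-1α/TNF-α/C1q. For miR-324 it held 62.04% and 73.99%, the opposite direction to miR-126a.

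**Figure D3:**
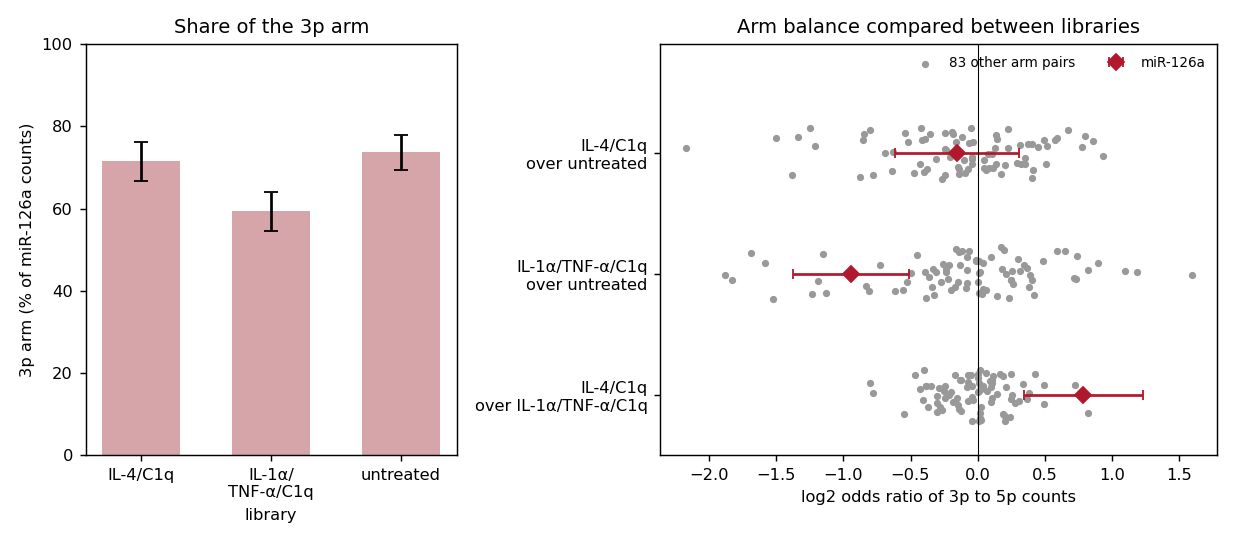
Left, share of the 3p arm among all miR-126a counts in each library, with 95% Clopper-Pearson intervals; right, log2 odds ratio of 3p to 5p counts between libraries for miR-126a (diamonds, 95% exact intervals) and for 83 other rat-named arm pairs (grey points, spread vertically for legibility). The 3p share is 71.5%, 59.3% and 73.7%, and the diamonds lie at −0.15, −0.94 and 0.79 from top to bottom.

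The miRNAs whose pattern over the 3 libraries came closest to each arm were different ones. Likeness was the Euclidean distance between log2 CPM profiles after subtracting each profile's mean, over 258 rat-named miRNAs with at least 100 counts in every library; 3 libraries allow only a coarse comparison. Nearest to miR-126a-3p was miR-324-5p, at a distance of 0.09, with 186, 168 and 230 counts for IL-4/C1q, IL-1α/TNF-α/C1q and untreated cells. It was followed by miR-344b-3p (0.29), miR-378a-5p (0.33), miR-181a-2-3p (0.37) and miR-323-3p (0.38). All 5 were highest in the untreated library and lowest after IL-1α/TNF-α/C1q, an order that choosing them by likeness to miR-126a-3p favours. Nearest to miR-126a-5p were miR-148a-5p (0.03), miR-34b-3p, miR-30a-3p and miR-499-5p (0.04, 0.04 and 0.05) and miR-361-3p (0.07), with log2 ratios to the untreated library between −0.41 and −0.25. The arms themselves were 0.71 apart, and 52 of the 258 miRNAs lay closer to the 3p arm than the 5p arm did.

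Other miRNAs linked to vessels are given beside miR-126a. Of 16 miRNAs listed for roles in endothelium or angiogenesis, 3 were lower after IL-4/C1q than in untreated cells and none was higher. After IL-1α/TNF-α/C1q 3 were lower and 1 was higher. The lower calls are shares near those of all miRNAs with enough counts, of which 23.5% and 21.1% were lower in the same comparisons. Of all those miRNAs 12.8% and 13.5% were higher, larger shares than in the list. The list medians on the log2 (CPM + 1) scale were 0.07 and 0.12, against −0.16 and −0.07 over all miRNAs with enough counts. Over the rat-named ones, as nearly all members of the list are, the medians were −0.04 and 0.04. Between IL-4/C1q and IL-1α/TNF-α/C1q none of the 16 met the rule, with a median of 0.01 against −0.06. Of all miRNAs 1.5% were higher and 1.07% lower in that comparison. The most abundant members were all within 2-fold: miR-92a-3p, which restrains vessel growth, had 15463, 16569 and 16397 CPM for IL-4/C1q, IL-1α/TNF-α/C1q and untreated cells. miR-221-3p, which represses the receptor Kit in endothelial cells, had 14423, 15909 and 11517 CPM. miR-27a-3p and miR-24-3p, of 1 cluster with miR-23a, had log2 ratios to the untreated library between −0.08 and 0.18. The members past the rule, chosen after their values were seen, were miR-10a-5p, miR-10b-5p and cpo-miR-424-5p, lower in both treated libraries with log2 ratios from −3.63 to −1.87, and miR-503-5p, higher after IL-1α/TNF-α/C1q with 1.40. cpo-miR-424-5p is a row named for another species, used because no rat-named row had that name, so it may not stand for a rat miRNA.

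miR-143 and miR-145, a cluster of smooth muscle cells and pericytes, which surround the endothelium, differed from untreated cells in the opposite direction to miR-126a. All 4 arms were higher after IL-4/C1q than in untreated cells, with a list median of 1.85, and 3 of 4 were higher after IL-1α/TNF-α/C1q, with a median of 1.18. Over all miRNAs 12.8% and 13.5% were higher, with medians of −0.16 and −0.07. Over the rat-named ones 15.4% and 15% were higher, with medians of −0.04 and 0.04. Between IL-4/C1q and IL-1α/TNF-α/C1q none of the 4 met the rule, and of all miRNAs 1.5% were higher by it. All 4 had log2 ratios above 0, from 0.63 to 0.90, in the same direction as the 0.74 of miR-126a-3p. miR-143-3p had 49047 CPM after IL-4/C1q, 30577 after IL-1α/TNF-α/C1q and 12140 in the untreated library. miR-145-3p had 816, 526 and 251 CPM.

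Because miR-126 also occurs in blood, markers of blood cells are given beside it. The erythroid list, with 4 of 4 members measured, summed to 164 CPM after IL-4/C1q, 158 CPM after IL-1α/TNF-α/C1q and 1744 CPM in the untreated library. All 4 were lower in both treated libraries, with medians of −3.70 and −4.55 (−4.39 with a count of 0 set to 3). Over all miRNAs 23.5% and 21.1% were lower, with medians of −0.16 and −0.07. Over the rat-named ones 14.8% and 12.3% were lower, with medians of −0.04 and 0.04. miR-451-5p, which red cell precursors make in large amounts, had 23, 38 and 5291 counts, and miR-144-3p, transcribed with it, had 5, 0 and 138. The 0 allows up to 0.243 CPM. The leukocyte list, with 5 of 5 measured and 3 of them in rows of other species, summed to 264 CPM, 227 CPM and 334 CPM. mmu-miR-223-3p, a myeloid miRNA also abundant in platelets, had 238 counts after IL-4/C1q, 28 after IL-1α/TNF-α/C1q and 368 in untreated cells. cpo-miR-142-5p, found in blood cells in general, had 246, 80 and 725. These 2 had the same order of libraries as miR-126a-3p, highest in untreated cells and lowest after IL-1α/TNF-α/C1q, and both met the rule as higher in IL-4/C1q than in IL-1α/TNF-α/C1q, as 1.5% of all miRNAs did. None of the other detected leukocyte members met the rule there. miR-150-5p had that order of libraries too, at 5.91, 4.22 and 6.49 CPM. miR-342-3p did not, at 195, 214 and 153 CPM, and cpo-miR-142-3p had 0, 0 and 5 counts. The medians of the leukocyte list were −0.84 in both comparisons with untreated cells (−0.37 for IL-4/C1q and −0.53 for IL-1α/TNF-α/C1q with counts of 0 set to 3) and 0.41 between the treated libraries. Those against untreated cells are the values of the middle member, cpo-miR-142-3p, which had too few counts for the rule, so they do not describe the list. By the rule 1 of 3 members with enough counts was lower after IL-4/C1q, and 2 of 4 after IL-1α/TNF-α/C1q. Over all miRNAs 23.5% and 21.1% were lower.

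The platelet list, 6 of 7 measured, overlaps the leukocyte, astrocyte and vascular lists, and its medians were 0.04, −0.03 and 0.14 for IL-4/C1q and IL-1α/TNF-α/C1q against untreated cells and for IL-4/C1q against IL-1α/TNF-α/C1q. In it miR-199a-3p, known from mesenchymal cells too, met the rule as higher in both treated libraries than in untreated cells. Of all miRNAs 12.8% after IL-4/C1q and 13.5% after IL-1α/TNF-α/C1q did so. The rule was met in no comparison by miR-191a-5p, miR-24-3p and miR-21-5p. mmu-miR-223-3p, shared with the leukocyte list, was lower after IL-1α/TNF-α/C1q than in untreated cells by the rule (log2 −4.68), as were 21.1% of all miRNAs. Between the treated libraries it was higher after IL-4/C1q (log2 3.75), as were 1.5% of all miRNAs. The epithelial list, with 6 of 6 measured, had 102, 115 and 3471 CPM for IL-4/C1q, IL-1α/TNF-α/C1q and untreated cells. Its member miR-141-3p, named with its values known, was at 0 in both treated libraries. The untreated library thus stood apart from both others in erythroid and epithelial miRNAs by more than it did in either miR-126a arm. The part of blood cell or epithelial RNA in the levels of miR-126a was not tested.

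**Figure D4:**
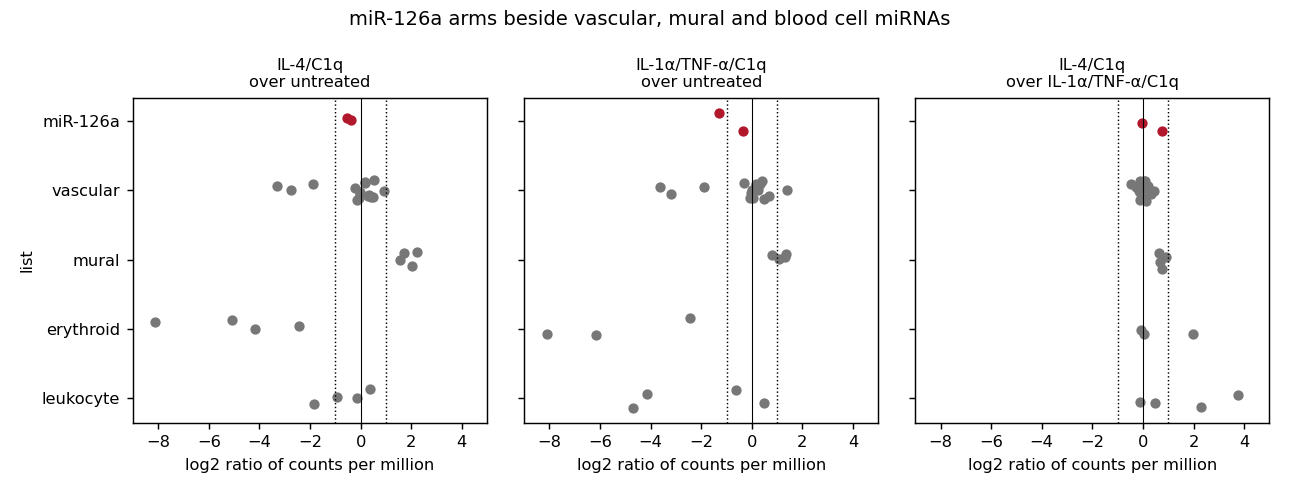
log2 ratios of CPM for the miR-126a arms (red) and the measured members of the vascular, mural, erythroid and leukocyte lists (grey), 1 panel for each comparison; each point is 1 miRNA, dotted lines mark 2-fold, and miRNAs with a count of 0 in either library are not drawn. Against untreated cells the mural points lie to the right and the erythroid points to the left; in the right panel the points furthest right are mmu-miR-223-3p and cpo-miR-142-5p, and miR-126a-3p lies at 0.74.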

How the data were processed

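The authors deposited, per the file headers, an estimated count column (raw) and a scaled signal column (norm) for each library. The estimated counts were not all whole. The deposited signal was the count times 1 constant per library, 1.14 for IL-4/C1q, 0.684 for IL-1α/TNF-α/C1q and 1.25 for untreated cells, and served only as an alternative scaling. No aligner, counter or miRNA database is named in the labels or headers (not given in the sources used here). Column headings of the treated files are short codes, so each file's library was taken from the deposit's record.

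Predicted candidates (372 rows) were left out. Rows of a mature name were summed, substitution-tagged rows being kept apart where the plain name had a row, which gave 935 miRNAs. CPM used the library's miRNA-named total. Counts were rounded for intervals, which cover counting error only and treat each count as independent. PCR copies are not independent molecules, so the intervals may be too narrow even for counting error. List members with no rat-named row were taken from the species row with most counts. Named miRNAs were the arms, their neighbours in rank, the 5 nearest profiles and, in each list, the 4 members of highest mean CPM. For arm odds of pairs, 0.5 was added to each count. The members, lists and rules were chosen with earlier results of these data known. Alternatives used TMM factors of edgeR 4.0.16, size factors of DESeq2 1.42.0, other totals, count and fold minimums and a pseudocount of 1 CPM. R 4.3.3 and scipy 1.17.1 were used.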

Additional observations from a re-analysis of the deposited data

How the results depend on the processing

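All 48 alternative values of the 6 ratios of the miR-126a arms stayed within the counting interval of the reported value. These covered TMM and DESeq2 factors, the total without miR-21-5p, the authors' signal, the rat-named total, the highest row, rows of any species and the pseudocount. The highest row and rows of any species could not differ from the reported value, since each arm had 1 row and no other species had one. miR-126a-3p met the size rule for IL-1α/TNF-α/C1q against untreated cells under each setting, with log2 ratios from −1.30 to −1.16, and in no other comparison. DESeq2 factors shifted each log2 ratio by 0.18 for IL-4/C1q and 0.13 for IL-1α/TNF-α/C1q against untreated cells. For the arm shares, the alternatives were the highest row and rows of any species. The 6 alternative arm shares equalled the reported ones, as they had to with 1 row per arm and none in another species. How far the arm shares depend on the processing was thus not tested. No paired analysis was possible because each condition had 1 library.

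The number of miRNAs past the size rule depended on the count minimum. For IL-4/C1q against untreated cells it was 176, against 322 with at least 10 counts, 441 with no minimum and 108 in rat-named rows. For IL-1α/TNF-α/C1q against untreated cells it was 177, against 337, 446 and 102, and 280 at a 1.5-fold minimum. For IL-4/C1q against IL-1α/TNF-α/C1q it was 12, against 57, 92 and 4, and 41 at 1.5-fold. With DESeq2 factors the split against untreated cells was 83 higher and 97 lower for IL-4/C1q, where total counts gave 62 and 114. For IL-1α/TNF-α/C1q it was 89 and 103, where total counts gave 69 and 108. The arms rest on 107 to 319 counts per library, and with total counts the intervals of all 3 ratios of the 5p arm include 1. With the rat-named total, both 5p intervals against untreated cells fall just below no difference, at log2 −0.79 to −0.0068 for IL-4/C1q and −0.70 to −0.00047 for IL-1α/TNF-α/C1q.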
